A study of Mus musculus and Homo sapiens with 20 samples.

Results

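Flavin-dependent enzymes carry FAD or FMN, the cofactors that cells build from vitamin B2 (riboflavin). Chromatin accessibility at the genes of 47 such proteins was examined in mouse hepatocytes with vitamin B2 deficiency. The 47 genes were taken by name, and each region was given to the closest body of a protein-coding gene, up to 50 kb away. Regions near them made up 1339 of 642948 merged peak regions in the 12 libraries, and 275 of the 101575 regions that had a peak in every library and could be tested. These 275 regions belonged to 46 of the 47 genes, with 1 to 20 regions per gene, out of 16876 genes with a tested region. The exception was Dao (D-amino-acid oxidase), whose highest count in any library was 11 tags and which had no region listed in all 12. Of the 275 regions, 239 overlapped the gene body, 16 were equally near to another gene, and the farthest, at Dld, lay 23229 bp away with 30.6 scaled tags. Just outside the limit was 1 further region, 54684 bp from Hao1, with 13.5 scaled tags and a log2 fold change between diets of -0.66.

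The assay was ATAC-seq, in which the transposase Tn5 places adapters into open DNA so that tags accumulate where chromatin is accessible. The libraries came from hepatocytes labelled AhR_flox and 4 weeks, in 4 groups of 3. The groups were B2_minus with Ad_Cre, control with Ad_Cre, B2_minus with Ad_Cont and control with Ad_Cont. B2_minus stands for vitamin B2 deficiency per the labels, and all 4 groups carry the floxed gene of the aryl hydrocarbon receptor (AhR), which the recombinase Cre can remove. The labels give no strain, age or sex, no floxed exon, and no statement on whether the 4 weeks refer to animals or to cells. They do not say whether the 3 replicates came from separate animals or cultures, so p-values measure the spread between these libraries, which may be technical. A further 8 libraries of the human line HepG2 were not analysed here.

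Read as tag counts, the whole-number values of the listed peaks summed to 3897632 to 5557678 tags per library. The sequencing depth is unknown. Values below are scaled tags, the count in a region divided by the library's relative size after TMM normalization, a scaling that sets the typical region equal between libraries. The member regions held 0.295% to 0.305% of the tags in tested regions in every library. The target gene Ahr had 9 tested regions, which summed to 253 to 265 scaled tags with Ad_Cre and 270.4 to 278 with Ad_Cont in B2_minus, and to 244 to 279 with Ad_Cre and 249 to 265 with Ad_Cont in control. None of the 9 was called between Ad_Cre and Ad_Cont by edgeR's quasi-likelihood test (lowest adjusted p = 0.411 over both diets), so these regions do not show whether Cre removed part of the gene. Of 10 hepatocyte markers, 10 had a tested region, against 3 of 8 Kupffer cell markers, while 8 of 8 markers each of endothelial cells, stellate cells and cholangiocytes had one too.

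As background, riboflavin kinase turns riboflavin into FMN, and FAD synthase turns FMN into FAD. Acyl-CoA dehydrogenases use FAD to begin the mitochondrial breakdown of fatty acids and branched-chain amino acids, and hand their electrons to the electron transfer flavoprotein, whose oxidoreductase passes them to ubiquinone. In the endoplasmic reticulum of hepatocytes, cytochrome P450 oxidoreductase uses FAD and FMN to feed electrons to the P450 enzymes that metabolise drugs and steroids. AhR is a ligand-activated transcription factor, known for inducing drug-metabolising genes through DNA elements with the core GCGTG.

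The DNA before the start of each gene was read from RefSeq on GRCm38.p6, the assembly of mm10. Of the 47 genes, 40 had a listed start. A window from 250 bases before to 50 bases after it held the AhR core GCGTG, on either strand, in 22 of the 40 genes (55.0%), against 41.9% of 17274 protein-coding genes. The CCAAT box of NF-Y was in 21 (52.5%, against 42.7%), the letters GCGCATGC from the NRF1 motif in 5 (12.5%, against 3.98%), the ETS letters CCGGAAG in 3 (7.5%, against 13.1%), the E-box CACGTG in 2 (5.0%, against 9.02%), AGGTCAAAG from the DR1 motif in 1 (2.5%, against 0.48%) and the CRE TGACGTCA in 0 (0.0%, against 2.58%), all on either strand. A match of letters is a description of the sequence and not a measured binding site. The 5 genes with the letters from the NRF1 motif were Acad10, Acadm, Aifm1, Etfa and Etfdh. Of these, 4 belong to the acyl-CoA dehydrogenase and electron transfer groups, which hold 11 and 3 of the 47 genes. Whether the letters favour these groups was not tested.

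The 250 bases before the start are printed below, on the gene's own strand, for Por, Fmo5, Aox1, Aox3 and Acox3, whose accessibility differed between diets in the sum over their regions, and for Kdm1b and Hao1, the genes with the strongest and the weakest region at a listed start. Capitals mark GCGTG or its reverse complement CACGC.
Por (chr5:135688895-135689144, plus strand): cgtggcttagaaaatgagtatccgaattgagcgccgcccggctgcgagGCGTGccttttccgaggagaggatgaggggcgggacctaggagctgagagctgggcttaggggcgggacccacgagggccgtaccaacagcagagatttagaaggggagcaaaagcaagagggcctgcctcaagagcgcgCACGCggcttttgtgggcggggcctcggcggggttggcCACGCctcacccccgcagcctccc
Fmo5 (chr3:97628769-97629018, plus strand): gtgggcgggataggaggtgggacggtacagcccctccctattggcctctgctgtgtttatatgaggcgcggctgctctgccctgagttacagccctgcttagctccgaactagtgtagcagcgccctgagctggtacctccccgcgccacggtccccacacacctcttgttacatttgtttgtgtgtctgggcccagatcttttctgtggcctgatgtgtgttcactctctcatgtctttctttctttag
Aox1 (chr1:58029719-58029968, plus strand): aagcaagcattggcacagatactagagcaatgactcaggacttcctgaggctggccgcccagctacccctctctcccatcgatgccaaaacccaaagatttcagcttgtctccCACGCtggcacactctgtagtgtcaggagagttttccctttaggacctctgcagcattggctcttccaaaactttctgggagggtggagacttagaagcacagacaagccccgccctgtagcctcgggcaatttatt
Aox3 (chr1:58112886-58113135, plus strand): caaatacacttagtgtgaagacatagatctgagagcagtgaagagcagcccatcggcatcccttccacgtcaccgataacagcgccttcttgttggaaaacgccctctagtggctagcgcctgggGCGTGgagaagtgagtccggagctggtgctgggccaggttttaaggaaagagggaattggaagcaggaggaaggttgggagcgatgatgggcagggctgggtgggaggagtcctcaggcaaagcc
Acox3 (chr5:35582784-35583033, plus strand): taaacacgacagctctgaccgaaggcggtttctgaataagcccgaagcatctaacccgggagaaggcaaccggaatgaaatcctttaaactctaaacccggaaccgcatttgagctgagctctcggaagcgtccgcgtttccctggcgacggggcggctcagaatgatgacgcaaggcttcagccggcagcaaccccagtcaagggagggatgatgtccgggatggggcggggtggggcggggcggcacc
Kdm1b (chr13:47043249-47043498, plus strand): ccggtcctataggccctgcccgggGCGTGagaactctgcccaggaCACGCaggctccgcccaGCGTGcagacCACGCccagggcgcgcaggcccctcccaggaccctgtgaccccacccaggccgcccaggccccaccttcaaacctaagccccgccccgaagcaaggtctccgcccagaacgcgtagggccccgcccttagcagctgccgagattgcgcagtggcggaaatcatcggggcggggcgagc
Hao1 (chr2:134554353-134554602, minus strand): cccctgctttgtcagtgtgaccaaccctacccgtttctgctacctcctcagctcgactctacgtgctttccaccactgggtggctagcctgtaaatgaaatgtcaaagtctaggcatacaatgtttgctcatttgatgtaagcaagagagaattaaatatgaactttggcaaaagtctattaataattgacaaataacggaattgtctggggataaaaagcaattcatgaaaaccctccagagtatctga
The AhR core occurs 3 times in the Por sequence and 4 times in that of Kdm1b, 1 time each in those of Aox1 and Aox3, and 0 times in those of Fmo5, Acox3 and Hao1.

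At the listed starts themselves, 38 of the 40 genes had a tested region, with a median of 79.5 scaled tags over all 12 libraries and a range of 22.8 to 111. The same median over 10205 protein-coding genes was 62.6. Away from gene starts the 234 member regions had a median of 20.4 scaled tags, near the 21.6 of all such regions. Levels are not corrected for the width of a region.

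Among the acyl-CoA dehydrogenases, the region at the start was strongest for Acadm (medium-chain), at 107 ± 4.55 scaled tags (SD, n = 12), and weakest for Acad11, at 45.4 ± 4.15. Acad9, whose start is not listed, had its strongest region at 55.9 ± 8.16. The oxidoreductase gene Etfdh led its group at 106 ± 5.49, and Etfb was lowest at 82.4 ± 6.76. Of the mitochondrial dehydrogenases and synthesis enzymes, Ppox, an enzyme of haem synthesis, stood highest at 90.4 ± 4.20 and Sdha, the flavoprotein of succinate dehydrogenase, lowest at 61.6 ± 4.53, while the strongest region of Dhodh, whose start is not listed, reached 93.5 ± 7.51. The other genes of each group lay between these values. In these 3 groups every listed start carried at least 45.4 scaled tags.

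The enzymes of drugs, amines and peroxisomes were more spread. In the amine and xenobiotic group Aox1 (aldehyde oxidase) had 94.4 ± 3.74 scaled tags at its start and the monooxygenase gene Fmo2 had 23.2 ± 3.04, and Maob (monoamine oxidase B, start not listed) had 15.5 ± 3.12 in its strongest region. Fmo4 had a listed start without a tested region there, and its strongest region, at -1454 bp from that start, had 36.2 ± 6.03. Among peroxisomal and polyamine oxidases Smox (spermine oxidase) had 86.2 ± 6.99 at its start and Hao1 (glycolate oxidase) 22.8 ± 4.05, the lowest of the 38 starts. Of the reductases, Por had 95.3 ± 8.44 and Txnrd2 (mitochondrial thioredoxin reductase) 50.2 ± 4.98, and Cyb5r3 (cytochrome b5 reductase) and Gsr (glutathione reductase), with no listed start, had 95.8 ± 5.81 and 83.5 ± 6.43 in their strongest regions. Of the FAD-dependent histone demethylases, Kdm1b had 111 ± 8.55, in a region equally near to Tpmt, and Kdm1a 48.7 ± 6.94.

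**Figure D1:**
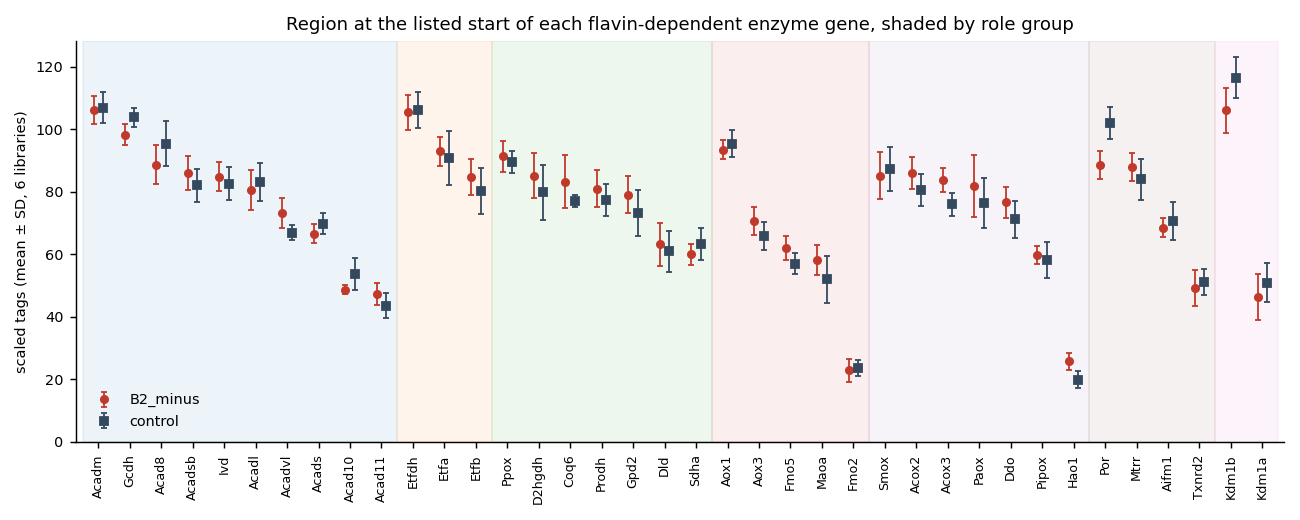
Scaled tags (y axis, mean ± SD over 6 libraries per diet) in the region at the listed start of 38 flavin-dependent enzyme genes, shaded by role group and ordered by level within it. B2_minus points (circles) lie beside control points (squares); Kdm1b is highest at 111 over all libraries, Hao1 lowest at 22.8, and at Por and Hao1 the 6 libraries of each diet do not overlap.

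The first question was whether the regions of flavin-dependent enzyme genes differ in accessibility between vitamin B2 deficiency and control. Over both Ad arms, 13 of the 275 regions were called by edgeR's quasi-likelihood test at an adjusted p under 0.05, adjusted over all 101575 regions. This is 4.73% of the member regions, against 5.78% of all regions, a share near the background. Of the 13, 6 were higher in B2_minus (2.18%, background 2.45%) and 7 were lower (2.55%, background 3.33%). The higher ones lay at Fmo5 (2 regions), Aox1, Aox3, Sdha and Dhodh, and the lower ones at Por (3 regions), Txnrd2, Gsr, Ddo and Prodh. The median log2 fold change was 0.03 over the member regions and 0.0049 over all regions. All 6 B2_minus libraries lay above all 6 control libraries in 3 member regions (background 0.898%) and below them in 1 (background 1.33%). At gene starts 1 of 41 member regions was called (background 3.37%), and away from them 12 of 234 (background 6.06%).

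The calls depended on how the spread was estimated. Within groups the variance of scaled tags was below their mean in 87.6% of member regions, with a median ratio of 0.57, and the fit used here lets the variance fall below counting noise. With the variance bounded at counting noise, edgeR called 2 of the 13, at Txnrd2 and Ddo, and DESeq2 called 0. By DESeq2, 13 of the 275 had an unadjusted p under 0.05, as had 5454 of all 101575 regions. With library sizes taken from the listed tags instead of TMM, the median of all regions rose to 0.10. The member calls were then 30 higher and 5 lower of 275, against 9753 higher and 1998 lower of all 101575 regions. The split between higher and lower calls is thus relative to the scaling. Adding up the peaks of a region in place of taking the highest kept 3 of the 13. A further setting tested every region with a peak in at least 3 libraries. A library without a peak there was given its lowest listed count, 6 to 8 tags. The 13 regions had a peak in every library, so their own counts were not filled in. This setting kept 6 of the 13 and gave 11 higher and 1 lower among 653 member regions. Over all 252554 regions of that setting, 3275 were called higher and 889 lower, against 2484 and 3383 in the main fit. Lower calls thus became fewer over all regions too. The 6 kept were the 6 higher regions, and all 7 lower ones, at Por, Txnrd2, Gsr, Ddo and Prodh, were lost, with adjusted p between 0.0501 at Txnrd2 and 0.290 at the Por start. Leaving out 1 library gave 8 to 15 calls, with 8 without control Ad_Cre replicate 3 or B2_minus Ad_Cre replicate 3.

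By role, the amine and xenobiotic oxidases and the reductases held 9 of the 13 calls. Among the oxidases, 4 of 61 regions were called higher (background 2.45%) and 0 lower (background 3.33%), and 68.9% of the regions had a positive fold change, against 51.1% of all tested regions. Among the reductases, 0 of 66 were called higher and 5 lower, against the same background shares, and 34.8% had a positive fold change. The median log2 fold change was 0.11 in the oxidases and -0.04 in the reductases with TMM. The scaling by listed tags gave 0.20 and 0.06, which turns the sign of the reductase median while the median of all regions moved to 0.10. The calls of the reductases then numbered 4 higher and 3 lower, and those of the oxidases 11 higher and 0 lower. Of all 101575 regions, 9753 were then called higher and 1998 lower. The mitochondrial dehydrogenases and synthesis enzymes had calls on both sides, 2 higher and 1 lower of 31 with TMM.

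Por encodes the reductase that supplies electrons to microsomal P450 enzymes, and it lies on chromosome 5 from 135670040 to 135735326. It had 20 tested regions, of which 16 had a negative fold change and 3 were called lower in B2_minus. The listed start lies at 135689145, inside the annotated gene span, so the regions upstream of it still overlap the gene. The first called region (chromosome 5, 135670945 to 135671243), centred at -18051 bp from the listed start, had 18.8, 22.0 and 24.5 scaled tags in the 3 B2_minus libraries with Ad_Cre, against 34.2, 31.8 and 39.4 in the control libraries with Ad_Cre. It had 26.9, 16.0 and 22.1 scaled tags in the B2_minus libraries with Ad_Cont, against 27.6, 26.9 and 32.4 in the control libraries with Ad_Cont. With Ad_Cre all 3 B2_minus libraries were below all 3 control libraries. With Ad_Cont the highest B2_minus library and the lowest control library lay together at 26.9, so the diets just touched there. B2_minus over control gave a log2 fold change of -0.54 ± 0.13 (SE) with an adjusted p of 0.00458, and the call held without each of the 12 libraries in turn (highest adjusted p = 0.0272), but not over regions with a peak in at least 3 libraries (adjusted p = 0.0962).

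The region at the Por start (chromosome 5, 135688596 to 135689264), which holds the Por sequence printed above, was the strongest of the gene. It had 85.5, 82.4 and 94.3 scaled tags in the 3 B2_minus libraries with Ad_Cre, against 101, 94.5 and 98.1 in the control libraries with Ad_Cre. It had 92.3, 90.6 and 86.3 scaled tags in the B2_minus libraries with Ad_Cont, against 107, 105 and 107 in the control libraries with Ad_Cont. All 6 B2_minus libraries lay below all 6 control libraries, the only member region where this was so. The difference was small, a log2 fold change of -0.20 ± 0.06 (SE), with an adjusted p of 0.0147. The call was lost without B2_minus Ad_Cre replicate 2 (adjusted p = 0.0514) and under scaling by listed tags, where the log2 fold change was -0.10 (adjusted p = 0.258).

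The remaining called Por region (chromosome 5, 135674813 to 135675157) lay at -14160 bp from the listed start. It spanned 32.0 to 45.9 scaled tags in the 6 B2_minus libraries, against 45.7 to 56.2 in the 6 control libraries, with a log2 fold change of -0.28 ± 0.09 (SE) and an adjusted p of 0.0403. The diets overlapped by a small margin. It was called in 3 of the 12 fits that left out a library, those without control Ad_Cont replicate 2, B2_minus Ad_Cont replicate 1 and control Ad_Cre replicate 2, and the adjusted p reached 0.137 in the others; it was also lost under scaling by listed tags. Among the other 17 Por regions, 4 had a positive fold change.

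**Figure D2:**
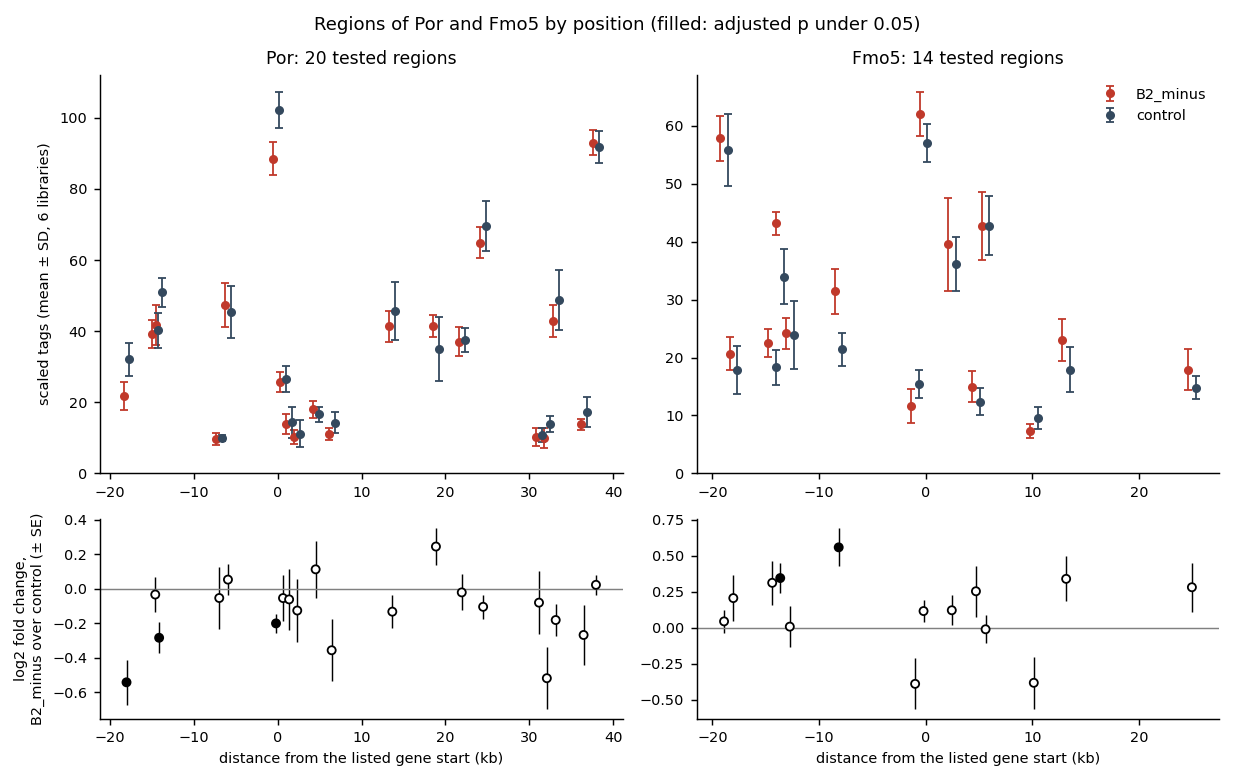
Tested regions of Por (left) and Fmo5 (right) by distance from the listed gene start in kb. Upper panels give scaled tags (mean ± SD, 6 libraries per diet, B2_minus and control offset sideways), lower panels the log2 fold change of B2_minus over control (± SE), filled where the adjusted p was under 0.05; 16 of 20 Por regions lie below 0 and 11 of 14 Fmo5 regions above it.

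The largest diet difference among the member regions called was at Txnrd2, which encodes the mitochondrial thioredoxin reductase. The region (chromosome 16, 18471356 to 18471671) lay inside the gene, 45096 bp after its start. It had 9.39, 15.3 and 13.6 scaled tags in the 3 B2_minus libraries with Ad_Cre, against 33.1, 36.8 and 24.5 in the control libraries with Ad_Cre. It had 13.4, 8.53 and 16.8 scaled tags in the B2_minus libraries with Ad_Cont, against 24.3, 12.9 and 31.3 in the control libraries with Ad_Cont. With Ad_Cre the groups were apart, and with Ad_Cont 1 control library, at 12.9, fell among the B2_minus values. Over both arms the log2 fold change was -1.03 ± 0.17 (SE), with an adjusted p of 1.19e-05; it was -1.26 ± 0.23 (SE) with Ad_Cre (adjusted p = 0.000676) and -0.79 ± 0.25 (SE) with Ad_Cont (adjusted p = 0.0957). It held without each library in turn, with an adjusted p of at most 0.00114, but not over regions with a peak in at least 3 libraries (adjusted p = 0.0501). These are low counts: the lowest B2_minus value is close to the lowest count a list can hold, 6 to 8 tags, which bounds the fold change. The other 6 Txnrd2 regions were not called.

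Gsr, the glutathione reductase gene, had 20 tested regions, 10 with a positive and 10 with a negative fold change. The 1 that was called (chromosome 8, 33684360 to 33684665) lay inside the gene and spanned 11.8 to 19.8 scaled tags in the 6 B2_minus libraries, against 17.7 to 29.8 in the 6 control libraries. The diets were apart with Ad_Cre and overlapped with Ad_Cont. The log2 fold change was -0.58 ± 0.16 (SE), with an adjusted p of 0.0136, and the call was lost without control Ad_Cont replicate 3, B2_minus Ad_Cont replicate 1 or B2_minus Ad_Cre replicate 3 (adjusted p up to 0.0713). None of the 15 regions of Cyb5r3, the 3 of Mtrr (methionine synthase reductase) or the 1 of Aifm1 (a mitochondrial flavoprotein known from apoptosis) was called.

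Fmo5, a flavin-containing monooxygenase gene on chromosome 3 from 97609938 to 97655287, had the most called regions on the higher side. Of its 14 tested regions, 11 had a positive fold change and 2 were called. The region centred at -8156 bp from the listed start (chromosome 3, 97620740 to 97620987), inside the annotated gene span, had 25.0, 32.6 and 32.6 scaled tags in the 3 B2_minus libraries with Ad_Cre, against 22.1, 21.9 and 21.0 in the control libraries with Ad_Cre. It had 35.8, 28.8 and 33.7 scaled tags in the B2_minus libraries with Ad_Cont, against 24.3, 22.9 and 16.2 in the control libraries with Ad_Cont. All 6 B2_minus libraries lay above all 6 control libraries. On the log2 scale the fold change was 0.56 ± 0.13 (SE) with an adjusted p of 0.00332, and it held without each library in turn (highest adjusted p = 0.0234).

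The second called Fmo5 region (chromosome 3, 97615244 to 97615516), at -13639 bp from the listed start, spanned 40.5 to 45.2 scaled tags in the 6 B2_minus libraries, against 28.7 to 42.8 in the 6 control libraries. A single control library, at 42.8, overlapped the B2_minus range. The log2 fold change was 0.35 ± 0.10 (SE), with an adjusted p of 0.0243, and the call was lost without B2_minus Ad_Cont replicate 3, control Ad_Cre replicate 1 or control Ad_Cre replicate 3 (adjusted p up to 0.08). At the Fmo5 start, 62.1 ± 3.84 scaled tags in B2_minus stood against 57.0 ± 3.27 in control (SD, n = 6 each; adjusted p = 0.402). Fmo1, Fmo2 and Fmo4, neighbours on chromosome 1, had 10, 4 and 3 tested regions and no call.

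Aox1 and Aox3 encode aldehyde oxidases, molybdenum-containing flavoenzymes of hepatocyte cytosol, and lie next to each other on chromosome 1. The called Aox1 region (chromosome 1, 58078409 to 58078740), 48605 bp into the gene, had 30.2, 34.5 and 41.7 scaled tags in the 3 B2_minus libraries with Ad_Cre, against 25.4, 25.9 and 21.0 in the control libraries with Ad_Cre. It had 34.9, 32.0 and 33.7 scaled tags in the B2_minus libraries with Ad_Cont, against 24.3, 24.9 and 32.4 in the control libraries with Ad_Cont. B2_minus was the higher diet, with overlap between the diets in 1 control library with Ad_Cont, at 32.4. The log2 fold change was 0.44 ± 0.12 (SE) with an adjusted p of 0.0142, a call lost without control Ad_Cre replicate 3 or B2_minus Ad_Cre replicate 3 (adjusted p up to 0.0811). The called Aox3 region (chromosome 1, 58114029 to 58114418), 1087 bp after the start, spanned 28.7 to 40.5 scaled tags in the 6 B2_minus libraries, against 21.9 to 30.9 in the 6 control libraries. Its log2 fold change was 0.37 ± 0.12 (SE), and its adjusted p of 0.0468 held in 3 of the 12 fits that left out a library, those without B2_minus Ad_Cont replicate 3, control Ad_Cre replicate 1 and B2_minus Ad_Cre replicate 2, and reached 0.121 in the others. Of the other oxidases, the 9 regions of Xdh (xanthine dehydrogenase) and the 2 each of Maoa and Maob were not called.

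Among the peroxisomal and polyamine oxidases, 1 of 48 regions was called, and it was lower in B2_minus. It lay inside Ddo, the gene of D-aspartate oxidase (chromosome 10, 40632635 to 40633002), 2807 bp after the start. It had 13.6, 15.3 and 9.97 scaled tags in the 3 B2_minus libraries with Ad_Cre, against 21.0, 18.9 and 14.0 in the control libraries with Ad_Cre. It had 10.8, 8.53 and 10.5 scaled tags in the B2_minus libraries with Ad_Cont, against 21.0, 17.9 and 28.1 in the control libraries with Ad_Cont. With Ad_Cont the diets were well apart, and with Ad_Cre 1 B2_minus library, at 15.3, exceeded the lowest control library, at 14.0. Over both arms the log2 fold change was -0.80 ± 0.18 (SE) (adjusted p = 0.00136), -0.45 ± 0.24 (SE) with Ad_Cre (adjusted p = 0.414) and -1.14 ± 0.25 (SE) with Ad_Cont (adjusted p = 0.0075). The difference between the arms was not called by edgeR (adjusted p of the interaction = 0.963), and the call over both arms held without each library in turn (highest adjusted p = 0.0123) but not over regions with a peak in at least 3 libraries (adjusted p = 0.0695).

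Hao1, the peroxisomal glycolate oxidase gene, had a region at its start (chromosome 2, 134554192 to 134554673) in which all 6 B2_minus libraries lay above all 6 control libraries. The range was 23.3 to 30.9 scaled tags in the 6 B2_minus libraries, against 14.9 to 23.2 in the 6 control libraries. The log2 fold change was 0.38 ± 0.15 (SE), but the adjusted p was 0.101, so the region did not pass the test. It contains the Hao1 sequence printed above. The 3 regions of Acox3 and the 10 of Acox2, which encode peroxisomal acyl-CoA oxidases, were not called one by one, nor were the regions of Paox, Smox and Pipox.

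In the mitochondrial groups the calls were few. Of 31 regions of dehydrogenases and synthesis enzymes, 2 were called higher and 1 lower. At Sdha the region 9009 bp into the gene (chromosome 13, 74341096 to 74341367) averaged 27.9 ± 4.13 scaled tags in B2_minus and 19.4 ± 3.50 in control (SD, n = 6 each), a log2 fold change of 0.52 ± 0.14 (SE) with an adjusted p of 0.0156, lost without control Ad_Cont replicate 3, B2_minus Ad_Cont replicate 1 or B2_minus Ad_Cre replicate 2 (adjusted p up to 0.1). In that region 24.9 was the highest control value and 24.5 the lowest B2_minus value, so the diets just overlapped. At Dhodh (dihydroorotate dehydrogenase, an FMN enzyme of pyrimidine synthesis) the region at the low-coordinate end of the gene (chromosome 8, 109593191 to 109593787) spanned 28.2 to 36.7 scaled tags in the 6 B2_minus libraries, against 16.6 to 28.1 in the 6 control libraries.

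The diets did not overlap in that Dhodh region (lowest B2_minus value 28.2, highest control value 28.1). The log2 fold change was 0.41 ± 0.13 (SE) with an adjusted p of 0.0311. It was lost in 6 of the 12 fits that left out a library, those without control Ad_Cont replicates 1 or 2, B2_minus Ad_Cont replicate 1, control Ad_Cre replicate 3, or B2_minus Ad_Cre replicates 2 or 3 (adjusted p up to 0.188). Near Prodh (proline dehydrogenase), the lower region (chromosome 16, 18096346 to 18096595) lay 7063 bp outside the gene and averaged 12.5 ± 1.44 scaled tags in B2_minus and 19.6 ± 4.85 in control (SD, n = 6 each). Its log2 fold change was -0.63 ± 0.17 (SE) with an adjusted p of 0.0148, lost without control Ad_Cont replicate 1 or 3 (adjusted p up to 0.0714). The regions of Dld, Gpd2, D2hgdh, Ppox and Coq6 were not called.

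None of the 47 regions of the 11 acyl-CoA dehydrogenase genes, the 13 regions of Etfa, Etfb and Etfdh, or the 9 regions of Kdm1a and Kdm1b was called by edgeR over both arms or in either arm. The acyl-CoA dehydrogenase regions had a median log2 fold change of 0.05, with 68.1% above 0. All 7 regions of Acadsb (short and branched chain) had a positive fold change, none of them past the threshold. At the Kdm1b start the mean was 106 ± 7.28 scaled tags in B2_minus and 117 ± 6.51 in control (SD, n = 6 each), with a log2 fold change of -0.14 ± 0.05 (SE) and an adjusted p of 0.0939.

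**Figure D3:**
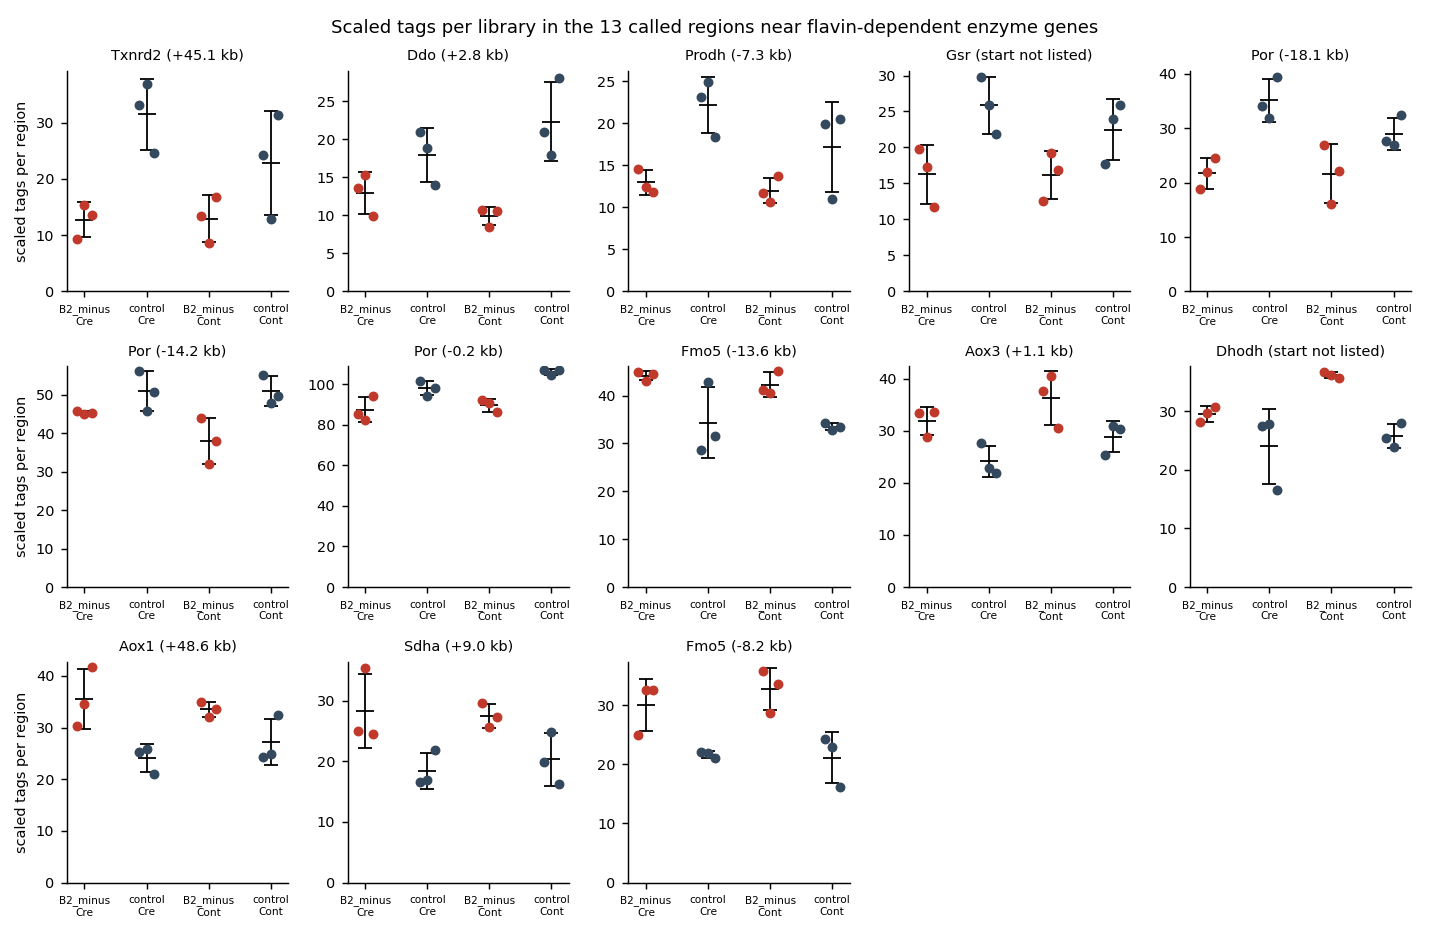
Scaled tags per library (points) with the group mean ± SD (bars) in the 13 called regions, ordered by fold change; the distance from the listed gene start is in brackets, and y axes start at 0. Txnrd2 shows the largest difference, and the B2_minus and control libraries do not overlap at the Por start, at Dhodh and at the Fmo5 region -8156 bp from the start.

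Tested in each Ad arm alone, fewer regions passed. With Ad_Cre, 2 of 275 member regions were called (background 1.13%), at Txnrd2 and at Por -18051 bp from the start, both lower in B2_minus. At an unadjusted edgeR p under 0.05 were 38 of the 275, and 13562 of all 101575 regions. With Ad_Cont, 1 was called (background 1.04%), at Ddo, also lower. At an unadjusted edgeR p under 0.05 were 32 of the 275, and 13398 of all 101575 regions. Without control Ad_Cont replicate 3 the Ad_Cont count was 0, without control Ad_Cont replicate 2 it was 2, and the Ad_Cre count was 1 without control Ad_Cre replicates 1 or 3 or any of the 3 B2_minus Ad_Cre libraries. Whether the diet difference itself differed between Ad_Cre and Ad_Cont was tested as an interaction, and 0 of 275 member regions were called (background 0.0%). At an unadjusted edgeR p under 0.05 were 21 of the 275, and 5221 of all 101575 regions. For the interaction limma and DESeq2 also called 0. A region called in 1 arm and not in the other is therefore not shown to differ between them. Among the 13 regions, the difference between arms was least far from the threshold at Ddo, where it too was not called.

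**Figure D4:**
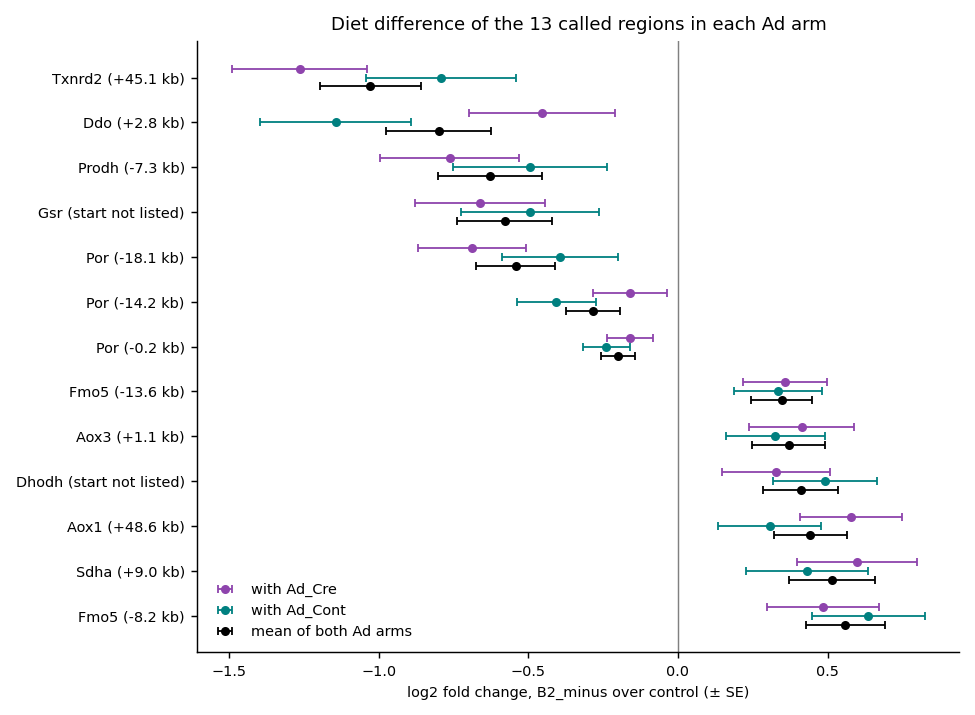
Log2 fold change of B2_minus over control (x axis, ± SE) for the 13 called regions with Ad_Cre, with Ad_Cont and as the mean of both arms; the distance from the listed start is in brackets. Txnrd2 is at -1.26 with Ad_Cre and -0.79 with Ad_Cont, Ddo at -0.45 and -1.14, and no region changes sign between arms. The 13 were called on the mean of both arms, a choice that favours the same sign in each.

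Between Ad_Cre and Ad_Cont, the comparison that removal of AhR would enter, no member region was called by edgeR. In control the count was 0 of 275 (background 0.00591%), in B2_minus 0 (background 0.00197%), and over both diets 0 (background 0.0955%). At an unadjusted edgeR p under 0.05 were 25 member regions in control, 18 in B2_minus and 30 over both diets. Of all 101575 regions, 7941 in control, 7406 in B2_minus and 10027 over both diets were under it. DESeq2 and limma called 0 member regions in each of these comparisons as well. The median log2 fold change over both diets was 0.0024 in the member regions. The 22 genes with a GCGTG core before or just after their start are among the members. Their lack of calls follows from the member count and is no separate result.

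Summing all tested regions of a gene gives 1 value per gene. Over both arms 5 of the 46 member genes differed between diets (10.9%, against 11.1% of all 16876 genes), 4 higher and 1 lower in B2_minus. Por was the lower one. Its 20 regions summed to 689.6, 680.1 and 709 scaled tags in the 3 B2_minus libraries with Ad_Cre, against 752, 753 and 748 in the control libraries with Ad_Cre. They summed to 695, 669 and 636 scaled tags in the B2_minus libraries with Ad_Cont, against 719, 731 and 709.6 in the control libraries with Ad_Cont. The diets did not overlap in either arm, and the log2 fold change was -0.11 ± 0.02 (SE) with an adjusted p of 0.00053. It held without each library in turn (highest adjusted p = 0.00676), but under scaling by listed tags it was -0.0087 (adjusted p = 0.867), when the median of all genes stood at 0.10.

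Fmo5 had the lowest adjusted p of the 4 that were higher. Its 14 regions summed to 441, 433 and 415 scaled tags in the 3 B2_minus libraries with Ad_Cre, against 363, 406 and 372 in the control libraries with Ad_Cre. They summed to 418, 395 and 406 scaled tags in the B2_minus libraries with Ad_Cont, against 379, 404 and 346 in the control libraries with Ad_Cont. With Ad_Cre the diets were apart, and with Ad_Cont they overlapped through 1 control library. The sums gave a log2 fold change of 0.14 ± 0.03 (SE) with an adjusted p of 0.0012, and it held without each library in turn (highest adjusted p = 0.0184).

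The sums of Aox1 were 364 to 385 in B2_minus against 332 to 374 in control (6 libraries each; log2 fold change 0.11 ± 0.03 (SE), adjusted p = 0.0178), and the call was lost without control Ad_Cont replicate 1, control Ad_Cre replicate 3 or B2_minus Ad_Cre replicate 3. Those of Aox3 were 233 to 261 in B2_minus against 219.9 to 237 in control (0.12 ± 0.04 (SE), adjusted p = 0.0326), lost in 6 of the 12 fits that left out a library, those without control Ad_Cont replicate 3, B2_minus Ad_Cont replicate 1, control Ad_Cre replicates 2 or 3, or B2_minus Ad_Cre replicates 1 or 3. Acox3, a peroxisomal acyl-CoA oxidase gene, had 111 to 128 in B2_minus against 97.6 to 114 in control (0.18 ± 0.06 (SE), adjusted p = 0.0312), lost in 7 of the 12 fits, those without control Ad_Cont replicates 2 or 3, B2_minus Ad_Cont replicates 1 or 3, control Ad_Cre replicates 1 or 3, or B2_minus Ad_Cre replicate 3. Without these libraries the adjusted p reached 0.1 for Aox1, 0.107 for Aox3 and 0.0971 for Acox3. In the amine and xenobiotic group all 9 genes had a positive log2 fold change of summed tags, from 0.0049 at Fmo2 to 0.18 at Fmo4 (edgeR adjusted p = 0.0791). The median of all genes was 0.0008. Of the 9, 3 passed, against 857 called higher of all 16876 genes. Of the 5 genes, 2 were called with the variance bounded at counting noise, and 0 by DESeq2 or with the peaks of a region added up. Of all 46 member genes, 3 had an unadjusted p under 0.05 by DESeq2, and 11 by edgeR with the peaks added up. Over all 16876 genes these numbers were 1398 and 3401.

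**Figure D5:**
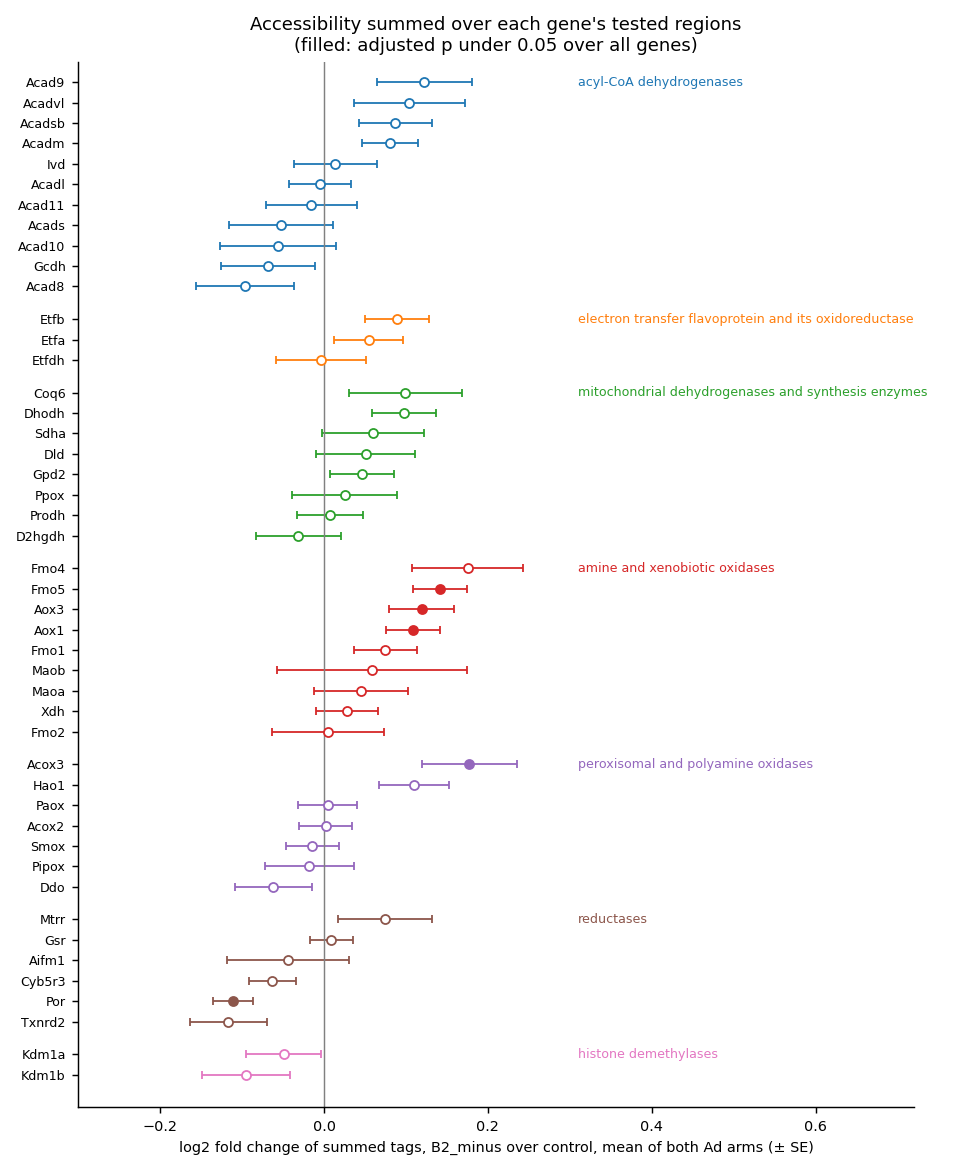
Log2 fold change of summed tags, B2_minus over control over both Ad arms (x axis, ± SE), for 46 flavin-dependent enzyme genes by role group; filled points had an adjusted p under 0.05 over all genes. Fmo5, Aox1, Aox3 and Acox3 are filled above 0 and Por below it, and every gene lies between -0.12 and 0.18.

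Regions missing from some lists were counted without a test. No member region had a peak in all 6 B2_minus libraries and in no control library (background 0.007%), or in all 6 control libraries and in no B2_minus library (background 0.0118%). With Ad_Cre, 4 of 1339 member regions (0.299%, background 0.222%) were listed in all 3 B2_minus and no control library, and 8 (0.597%, background 0.469%) in all 3 control and no B2_minus library. With Ad_Cont the counts were 8 (0.597%, background 0.334%) and 2 (0.149%, background 0.256%). In each arm these are a few regions, and no test was made of them.

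Genes that supply the cofactor were compared as well. The riboflavin transporters Slc52a2 and Slc52a3, riboflavin kinase (Rfk), FAD synthase (Flad1) and the mitochondrial carrier Slc25a32 had 20 tested regions, of which 0 were called in either diet direction over both arms or in either arm by edgeR, with a median log2 fold change of 0.03. A list of 35 other flavoprotein genes had 276 tested regions in 33 genes, with 12 called higher (background 2.45%) and 2 lower (background 3.33%) and a median of 0.03. Under scaling by listed tags 41 were called higher and 2 lower, against 9753 higher and 1998 lower of all 101575 regions. On summed tags 4 of the 33 genes were called higher and 2 lower, against 11.1% of all genes in either direction.

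Markers of liver cell types held called regions between diets too, against 2.45% higher and 3.33% lower of all regions with TMM. With listed tags, 9753 of all 101575 regions were called higher and 1998 lower. The part of these markers in the results above was not tested. Of 66 regions of cholangiocyte markers, 6 were called lower in B2_minus and 0 higher, with a median log2 fold change of -0.04. Under scaling by listed tags 4 were called lower, and the median was 0.05. Their summed scaled tags were 1939 to 2068 in B2_minus with Ad_Cre, 2049.9 to 2111 in control with Ad_Cre, 2005 to 2057 in B2_minus with Ad_Cont and 2089 to 2133 in control with Ad_Cont. Of 27 regions of stellate cell markers, 3 were lower and 0 higher (2 and 0 with listed tags), with sums of 647 to 710.3 in B2_minus with Ad_Cre, 736 to 809 in control with Ad_Cre, 678 to 693 in B2_minus with Ad_Cont and 734 to 778 in control with Ad_Cont. Of 120 regions of hepatocyte markers, 8 were higher and 3 lower (14 and 2 with listed tags), with sums of 3375 to 3433 in B2_minus with Ad_Cre, 3159 to 3262 in control with Ad_Cre, 3362 to 3457 in B2_minus with Ad_Cont and 3289.7 to 3342 in control with Ad_Cont. In these cell mixtures, fewer cells of a type and less accessible DNA per cell cannot be told apart.

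Endothelial cell markers had 3 higher and 4 lower of 55 regions (7 and 3 with listed tags), with sums of 1399 to 1420.4 in B2_minus with Ad_Cre, 1376 to 1421 in control with Ad_Cre, 1399.7 to 1430.1 in B2_minus with Ad_Cont and 1346 to 1430.5 in control with Ad_Cont. Kupffer cell markers had 1 lower of 7 regions (1 higher and 1 lower with listed tags), with sums of 148 to 167 in B2_minus with Ad_Cre, 159 to 173 in control with Ad_Cre, 148 to 159 in B2_minus with Ad_Cont and 147 to 159 in control with Ad_Cont, and Adgre1, Cd5l, Clec4f, Timd4 and Vsig4 had no tested region. Between the diets the Kupffer cell sums overlapped in both arms.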

How the data were processed

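Values were deposited counts: per the submitters' processing notes, reads were handled with Bowtie2 and HOMER on mm10, and the authors' peak lists give a tag count per peak and library, which does not state total depth. Their versions and peak settings were not given in the sources used here. Peaks of the 12 hepatocyte libraries overlapping by at least 1 bp were merged, and a library's value was its highest peak there. A region enters the test with a peak in all 12, so losses below the lowest listed count (6 to 8 tags) are not tested. Tests used edgeR 4.0.16 in R 4.3.3 (quasi-likelihood, TMM, 4 groups with 1 estimate of spread, 7 contrasts, Benjamini-Hochberg adjustment over all regions). The fit was tried on simulated counts whose variance equals counting noise. In these libraries the variance was below that in most regions, so the simulation cannot show the rate of false calls here. DESeq2 1.42.0, limma 3.58.1 on log2(tags + 1) and other settings were alternatives. Members, lists, motifs and the form of the fit, without a lower bound at counting noise, were chosen with earlier results of these data known. So was the diet contrast over both Ad arms, which gave the 13 regions and 5 genes. In the earlier results both arms had moved alike. Regions and genes named are those called, plus the highest and lowest level in each role group. Gene bodies and starts came from RefSeq tables of GRCm38.p6, which do not resolve exons. The 8 HepG2 libraries were not used.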

Additional observations from a re-analysis of the deposited data

How the results depend on the processing

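With Ad_Cont, the 1 region called became 2 with library sizes from listed tags (1 higher, 1 lower) or with an overlap of at least 100 bp (2 lower). It became 0 with edgeR bounded at counting noise, with DESeq2 or with a peak in at least 3 libraries. The count was also 0 with a mean of at least 20 tags or with peaks of at least 10 tags. These 2 filters left the called Ddo region out of the test. Leaving out 1 library gave 0 to 2. With Ad_Cre, the 2 became 14 with listed tags (13 higher, 1 lower), against 4077 higher and 482 lower of all 101575 regions. They became 1 with the bounded fit, limma or a mean of at least 20 tags, a filter that left the Txnrd2 region untested. They became 0 with DESeq2, summed peaks or a peak in at least 3 libraries, and 1 to 2 without 1 library. Over both arms, the 13 became 35 with listed tags (30 higher, 5 lower), against 9753 higher and 1998 lower of all 101575 regions. The 13 became 2 with the bounded fit, 0 with DESeq2, 3 with summed peaks, and 8 to 15 without 1 library. Between Ad_Cre and Ad_Cont over both diets, the 0 became 1 lower with listed tags, against 32 higher and 310 lower of all 101575 regions. For genes on summed tags, the 5 became 21 of 46 with listed tags (all higher), against 5629 higher and 314 lower of all 16876 genes. The 5 became 2 with the bounded fit, 0 with DESeq2 or summed peaks, and 2 to 5 without 1 library. Regions listed in one diet only numbered 10 with Ad_Cont and 12 with Ad_Cre, and 2 and 3 in a separate merge of peaks of at least 10 tags. The cause was not tested. None of the 13 called regions and 5 called genes changed sign under these alternatives, but the median log2 fold change turned with listed tags for the reductases (-0.04 with TMM, 0.06 with listed tags), the histone demethylases (-0.02, 0.07), the cholangiocyte markers (-0.04, 0.05) and the endothelial cell markers (-0.01, 0.09).

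Same-numbered replicates did not deviate together (r between -0.016 and 0.012), and no pairing was used in the main fit. The labels do not say whether same-numbered libraries share an animal or culture, and these correlations cannot settle it. With the replicate block, 13 regions (6 higher, 7 lower) and 5 genes were called, the same ones. RLE size factors kept all 13 and all 5. Of 51 other named member regions that were not called, 10 were called with listed tags. A fold change is bounded where one group nears the lowest listed count, and gains or losses of whole peaks are outside the test.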

Other observations

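Outside the 47 genes, the clearest diet difference at a flavoprotein gene lay in Mical3, which encodes a flavin monooxygenase that acts on actin. The region on chromosome 6 from 121173585 to 121173889 had 44.8, 36.4 and 35.4 scaled tags in the B2_minus libraries with Ad_Cre, against 16.5, 17.9 and 20.2 in the control libraries with Ad_Cre. It had 36.7, 26.7 and 33.7 scaled tags in the B2_minus libraries with Ad_Cont, against 17.7, 17.9 and 15.1 in the control libraries with Ad_Cont. All 6 B2_minus libraries lay above all 6 control libraries. The log2 fold change over both arms was 1.01 ± 0.14 (SE; edgeR adjusted p = 5.26e-08), and the call held under every alternative run, with an adjusted p of 0.0107 by DESeq2, the highest of them. A further 4 Mical3 regions were called higher and 1 lower.

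Further genes of the same list held calls by edgeR over both arms. Dmgdh, the mitochondrial dimethylglycine dehydrogenase, had 2 regions higher in B2_minus, with log2 fold changes of 0.86 ± 0.18 and 0.37 ± 0.08 (SE). The first of these, on chromosome 13 from 93700691 to 93701124, averaged 21.0 ± 1.34 scaled tags in B2_minus and 8.49 ± 1.28 in control with Ad_Cont, and 15.9 ± 2.71 in B2_minus and 11.8 ± 0.38 in control with Ad_Cre (SD, n = 3 each). Chdh (choline dehydrogenase) had 2 higher regions, at 0.40 on the log2 scale, lost without B2_minus Ad_Cont replicate 3 (adjusted p = 0.0546), and at 0.24, held without 2 of the 12 libraries in turn. Sqor (sulfide quinone oxidoreductase) had 1, at 0.55, lost without control Ad_Cont replicate 3, B2_minus Ad_Cont replicate 2 or control Ad_Cre replicate 3 (adjusted p up to 0.101). At Mical2 a region was lower, at -0.36, without a loss of the call when any library was left out.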
